A study of Mus musculus with 38 samples.

Results

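The 10 genes described here, Hsd3b5, Susd4, Elovl3, Cyp4a12a, Enho, Ghr, Igf1, Stat5b, Socs2 and Bcl6, belong to the growth hormone axis of the liver or depend on its pulses. They were 10 of the 18193 genes, and 26 of the 34945 probe sets, that carried 1 gene symbol. A member was any probe set annotated to 1 of the 10 symbols. The list was drawn up with the differences between treated and control livers already known, so those differences are given below as descriptions, without a test.

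In the male rodent pituitary, growth hormone is released in pulses separated by quiet intervals, whereas female release is closer to continuous. The hormone binds its receptor (Ghr) on hepatocytes, the associated kinase JAK2 phosphorylates STAT5b, and STAT5b drives Igf1, its own inhibitors such as Socs2, and a set of genes that are higher in male liver. Bcl6 encodes a repressor that is higher in male liver, is lowered by growth hormone, and binds many of the same DNA sites as STAT5.

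Livers of male CD-1 mice aged 6 to 8 weeks, an outbred stock, were profiled on 38 arrays from 2 feeding experiments with separate controls. In the conazole experiment, mice ate control feed, propiconazole at 2500 ppm or triadimefon (spelled tridimefon in the labels) at 1800 ppm for 4 or 30 days, with 3 arrays per group. Both compounds are triazole fungicides that block fungal sterol demethylation. In the phenobarbital experiment, mice ate control feed or phenobarbital, the standard activator of the nuclear receptor CAR, at 850 ppm for 4 or 30 days, with 5 arrays per group. Mean daily intakes were 349.6 ± 46.7 mg/kg for propiconazole, 257.1 ± 33.5 mg/kg for triadimefon and 97.2 ± 5.9 mg/kg for phenobarbital, so the doses differed. The labels call the arrays of a group biological replicates. They describe no genetic change, transplant or pooling.

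The proximal promoters of Hsd3b5 and Bcl6 are printed because, of the 10 genes, these are the ones in whose windows a STAT-type motif was found. Windows from 250 bases before to 50 bases after a RefSeq start (GRCm38.p6) were matched for 6 of the 10 genes, namely Hsd3b5, Susd4, Ghr, Igf1, Stat5b and Bcl6, in 10 windows; Elovl3, Cyp4a12a, Enho and Socs2 are not shown. The motifs searched were TTCNNNGAA, the spacing usual for STAT5, and its longer form with 4 bases of any kind between TTC and GAA. Each is its own reverse complement, so 1 search covers both strands, and no match of one overlapped a match of the other in the sequences shown. The 250 bases before each start follow, 5′ to 3′ on the gene's strand, with the matches in capitals.
Hsd3b5: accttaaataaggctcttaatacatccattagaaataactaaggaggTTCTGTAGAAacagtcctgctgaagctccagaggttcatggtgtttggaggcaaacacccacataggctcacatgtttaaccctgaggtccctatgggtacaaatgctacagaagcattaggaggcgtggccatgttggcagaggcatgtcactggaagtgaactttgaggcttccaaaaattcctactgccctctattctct
Bcl6: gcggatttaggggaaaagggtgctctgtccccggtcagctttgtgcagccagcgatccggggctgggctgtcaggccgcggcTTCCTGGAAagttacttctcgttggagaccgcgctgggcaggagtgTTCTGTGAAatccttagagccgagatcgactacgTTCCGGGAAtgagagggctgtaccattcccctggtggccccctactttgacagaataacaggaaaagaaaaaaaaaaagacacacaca
The Hsd3b5 stretch lies at chr3:98645535-98645784 on the minus strand and holds 1 match of the longer form, TTCTGTAGAA, that begins 203 bases before the start. The Bcl6 stretch lies before the downstream of the gene's 2 listed starts, at chr16:23981284-23981533, also on the minus strand. It holds 3 TTCNNNGAA matches, TTCCTGGAA, TTCTGTGAA and TTCCGGGAA, of which the last pair begin 122 and 88 bases before that start. The other Bcl6 window holds 1 more, TTCTCAGAA, 118 bases before its start. Of all 32851 windows of this length in the table, 8.3% hold TTCNNNGAA and 6.95% hold the longer form, against 2 and 1 of the 10 member windows. A match is a run of letters and not a measured binding site.

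Levels below are log2(intensity + 16) after quantile normalization, a scale with a lowest possible value of 4. Background was set at 6.15, below which 95% of 38 olfactory receptor genes, silent in liver, had their mean level, and the highest normalized value was 13.71. All 9 measured hepatocyte markers had means above background, and in the 6 comparisons of treated with control livers the only one called was Ahsg (fetuin A), at -0.39 ± 0.12 for propiconazole on day 4 (limma adjusted p = 0.034; -0.08 and 0.45 without the degraded array described next). Without that array another hepatocyte marker, Fgb, was called lower (-0.25, limma adjusted p = 0.028). Deposited array medians ran from 12.5 to 34.5 in the conazole experiment and from 25 to 36.1 in the phenobarbital experiment. Replicate 2 of propiconazole on day 4 stood apart, with the lowest median and a Gapdh 3′ minus 5′ probe difference of 6.39 log2 units, where the remaining 37 arrays spanned -0.37 to 0.22, which is a sign of degraded RNA. Where leaving it out turned a day 4 propiconazole change of a member or moved it by over 1.5 times, the value without it is given as well. Where it ended a call of a listed gene that is reported below, a value or only the count of calls without it is given. In whole liver, fewer cells of a type and less RNA per cell cannot be told apart.

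Ghr, the receptor, was abundant and was lower in every treated group on average. In the conazole controls on day 4 it stood at 12.37, 12.54 and 12.48, and with propiconazole at 11.35, 12.12 and 12.40, where the highest treated array overlapped the controls. The change was -0.50 ± 0.15 (SE) on day 4, and -0.20 without replicate 1, the lowest array. On day 30 the controls stood at 12.38, 12.44 and 12.37 and propiconazole at 11.73, 11.96 and 11.91, a change of -0.53 ± 0.15 with every treated array below every control. With triadimefon Ghr stood at 11.88, 11.95 and 12.46 on day 4 (-0.37 ± 0.15) and at 12.04, 12.22 and 12.04 on day 30 (-0.29 ± 0.15), overlapping the controls on day 4 and not on day 30.

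Phenobarbital livers showed the same direction for Ghr at a smaller size. The 5 controls on day 4 ranged from 12.24 to 12.39 and the 5 phenobarbital arrays from 11.99 to 12.18, a change of -0.23 ± 0.11. On day 30 the ranges were 12.38 to 12.53 and 12.16 to 12.30, a change of -0.20 ± 0.11. The groups did not overlap on either day, although these levels lie close to the top of the array's range. With median centring in place of quantile normalization the day 30 change of Ghr was -0.05.

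Igf1, the hormone made by the liver under growth hormone, was lower on average in every treated group too. Its conazole controls stood at 12.46, 12.62 and 12.56 on day 4 and propiconazole at 11.81, 12.17 and 12.61, a change of -0.35 ± 0.13 with 1 treated array within the control range. Without replicate 1, the lowest array, it was -0.16. The day 4 change with triadimefon was -0.15 ± 0.13. On day 30 controls stood at 12.29, 12.43 and 12.66, propiconazole at 12.20, 12.14 and 11.99, and triadimefon at 12.06, 12.16 and 12.19. The day 30 changes were -0.35 ± 0.13 and -0.32 ± 0.13, and no treated array reached the lowest control. Phenobarbital arrays lay below all controls on both days, from 12.26 to 12.39 against 12.40 to 12.73 on day 4 (-0.23 ± 0.10) and from 12.22 to 12.33 against 12.40 to 12.69 on day 30 (-0.24 ± 0.10). The latter was -0.09 with median centring.

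Stat5b, the transcription factor that carries the pulse signal to DNA, had no common direction. Its propiconazole changes were -0.21 ± 0.18 on day 4 (0.06 without the degraded replicate 2) and 0.05 ± 0.18 on day 30. With triadimefon it was -0.38 ± 0.18 on day 4, from 8.22, 8.22 and 8.64 against control values of 8.60, 8.96 and 8.67. On day 30 it was 0.41 ± 0.18, from 9.16, 8.98 and 9.27 against 8.61, 8.69 and 8.91, so the arrays overlapped on day 4 and lay above the controls on day 30. With phenobarbital the changes were -0.29 ± 0.14 and -0.33 ± 0.14, with no overlap on day 4. The dimmer of the 2 Stat5b probe sets gave -0.86 and -1.14 for propiconazole, so no direction is given for this gene.

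Socs2, a STAT5 target that feeds back on the receptor, and Bcl6 varied widely among animals of 1 group. Socs2 ran from 6.98 to 10.18 in the conazole controls on day 4 and from 6.00 to 10.40 with propiconazole on day 30. Its propiconazole changes were -1.15 ± 0.90 on day 4 and -1.17 ± 0.90 on day 30. The former was -0.09 without the degraded replicate 2, whose Socs2 value of 5.39 was below background, and the latter -0.23 without replicate 3. The largest Socs2 difference was with phenobarbital on day 4, where arrays stood at 7.20, 6.83, 7.40, 8.73 and 7.89 against 10.08, 9.28, 8.32, 8.03 and 9.06, a change of -1.34 ± 0.70. A second Socs2 probe set gave -1.35 there. Another differed less, with means of 6.01 with phenobarbital and 6.51 in controls and 1 and 3 of 5 arrays above background.

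Bcl6 stood at 9.06, 8.47 and 7.91 in the conazole controls on day 30 and at 5.09, 8.61 and 6.76 with propiconazole, a change of -1.66 ± 0.87 that was -0.80 without replicate 1. It was -0.01 ± 0.87 on day 4, and -0.35 without the degraded replicate 2. Triadimefon gave -1.20 ± 0.87 on day 4 (-2.13 without replicate 2 of the controls) and 0.22 ± 0.87 on day 30 (-0.06 without replicate 3 of the controls). Every comparison of Bcl6 with controls overlapped, and so did every such comparison of Socs2.

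**Figure D1:**
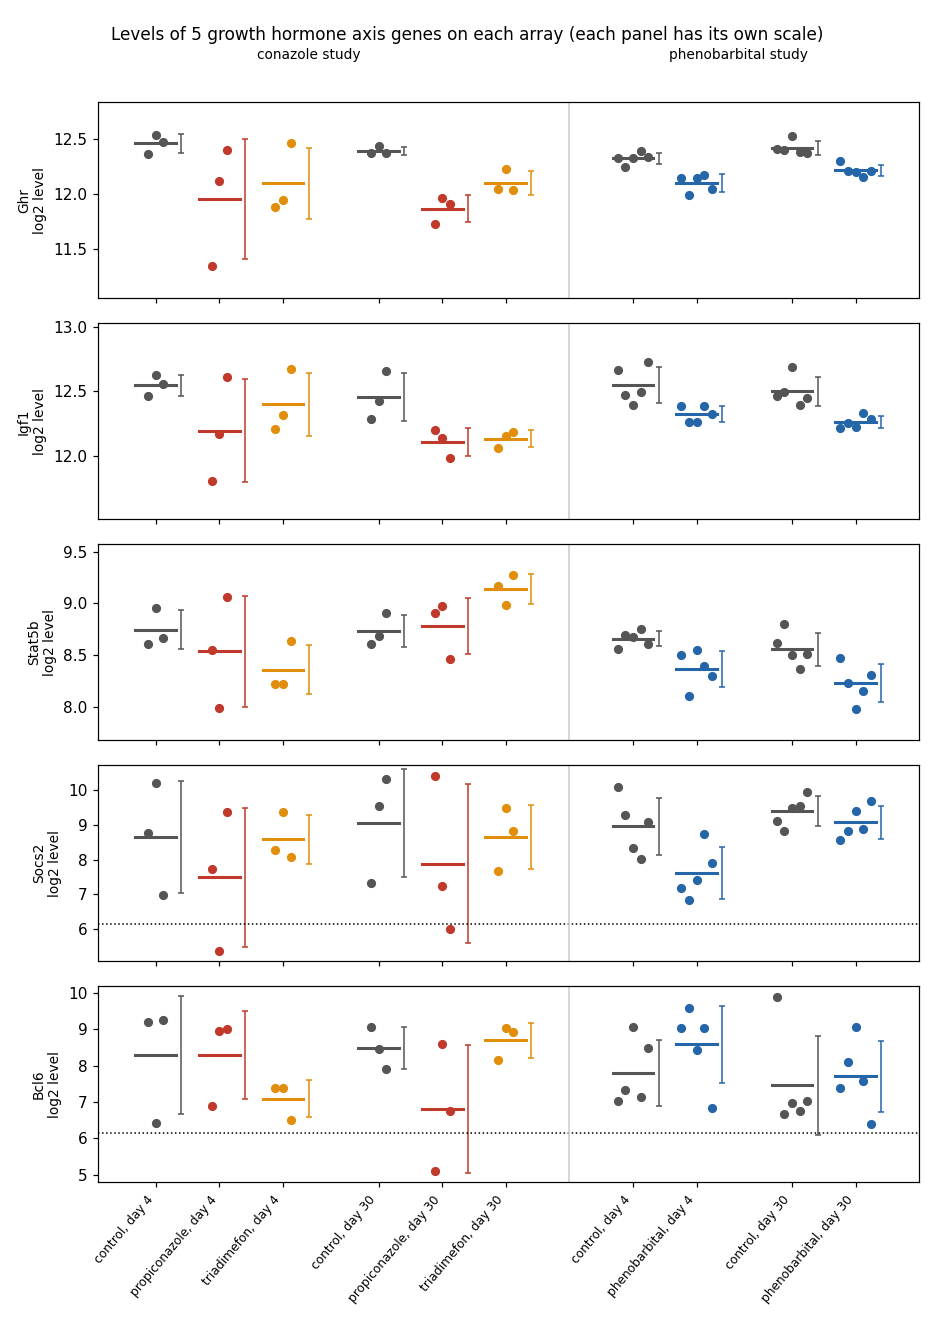
Levels of Ghr, Igf1, Stat5b, Socs2 and Bcl6, as log2(intensity + 16), on each of the 38 arrays by group; points are arrays, horizontal lines group means, bars beside them ± 1 SD, the dotted line background (where in range), and each panel has its own scale. Ghr and Igf1 sit below their controls in the phenobarbital groups without overlap, while the arrays of a group span from 1.12 to 4.40 log2 units for Socs2 and from 0.89 to 3.52 for Bcl6.

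Of the pulse dependent genes, Hsd3b5, Susd4 and Enho showed the largest differences from controls among the 10 members, in the conazole livers on day 30. Hsd3b5, a male-specific hydroxysteroid dehydrogenase of the liver, stood at 11.73, 11.98 and 12.18 in the day 4 controls and at 9.16, 8.36 and 12.06 with propiconazole. Of the 3 propiconazole livers on day 4, replicates 1 and 2 were low and replicate 3 was at the control level. On day 30 the controls stood at 12.13, 11.80 and 12.02 and propiconazole at 9.34, 9.90 and 4.45, with every treated array below every control and replicate 3 below background. The changes were -2.11 ± 0.77 on day 4 (-1.35 without the degraded replicate 2) and -4.09 ± 0.77 on day 30 (-2.36 without replicate 3).

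Hsd3b5 was less changed in the other livers. Triadimefon arrays stood at 11.02, 11.15 and 11.98 on day 4, overlapping the controls, and at 10.71, 11.39 and 10.84 on day 30, all below the controls. The changes were -0.58 ± 0.77 and -1.01 ± 0.77. The 20 arrays of the phenobarbital experiment all lay between 11.09 and 12.44, with changes of 0.08 ± 0.60 and -0.16 ± 0.60.

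Susd4, which encodes a sushi domain protein that inhibits complement, was the member with the clearest day 30 difference. It stood at 9.80, 9.40 and 9.12 in the controls, at 4.57, 4.60 and 5.03 with propiconazole, and at 5.94, 7.74 and 6.44 with triadimefon. All 3 propiconazole arrays were below background, so Susd4 was at least 9.77-fold lower there, and with triadimefon, where 2 of 3 arrays were above background, the change was -2.74 ± 0.46. On day 4 the controls stood at 7.61, 7.29 and 8.11, propiconazole at 7.33, 5.74 and 7.78 and triadimefon at 7.24, 6.71 and 6.97. The day 4 changes were -0.72 ± 0.46 (-0.11 without replicate 2) and -0.70 ± 0.46. Phenobarbital gave -0.26 ± 0.35 (0.04 without replicate 5) and -0.33 ± 0.35 with overlapping arrays.

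Enho, which encodes the secreted peptide adropin, had lower values with both conazoles by day 30. Controls on that day stood at 9.70, 9.56 and 8.45, propiconazole at 6.17, 5.22 and 5.27 (1 of 3 arrays above background) and triadimefon at 6.83, 6.21 and 7.68. The changes were -3.68 ± 0.56 and -2.33 ± 0.56, and no treated array reached the lowest control. On day 4 propiconazole livers stood at 7.84, 5.39 and 8.97 against 9.49, 9.61 and 9.04, a change of -1.98 ± 0.56 that was -0.97 without the degraded replicate 2. Triadimefon on day 4 gave -0.48 ± 0.56, and -0.02 without replicate 1. Phenobarbital gave -0.16 ± 0.43 (0.08 without replicate 2 of the controls) and -0.31 ± 0.43.

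Elovl3, an elongase of long fatty acids, and Cyp4a12a, a male-specific arachidonic acid hydroxylase, moved less. Elovl3 stood at 12.91, 12.39 and 12.55 in the day 30 controls, at 10.65, 10.99 and 11.59 with propiconazole and at 12.33, 11.86 and 11.80 with triadimefon. The changes were -1.54 ± 0.45 and -0.62 ± 0.45, both without overlap. Its day 4 changes were -0.50 ± 0.45 (-0.02 without replicate 2) with propiconazole and -0.39 ± 0.45 with triadimefon (0.04 without replicate 2). With phenobarbital Elovl3 was 0.75 ± 0.35 on day 4, or 0.38 without 1 low control, and 0.01 ± 0.35 on day 30.

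Cyp4a12a stayed between 11.90 and 12.73 on all 38 arrays. Its largest change was -0.19 ± 0.12, with propiconazole on day 30, where the arrays stood at 12.36, 12.41 and 12.50 against 12.59, 12.67 and 12.58 and did not overlap. The other changes of Cyp4a12a ran from -0.06 to 0.13, and the 0.10 of propiconazole on day 4 became -0.06 on the values as deposited and -0.11 without replicate 1 of the controls. Its probe set is close to the top of the array's range and may not separate Cyp4a12a from the nearly identical Cyp4a12b.

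**Figure D2:**
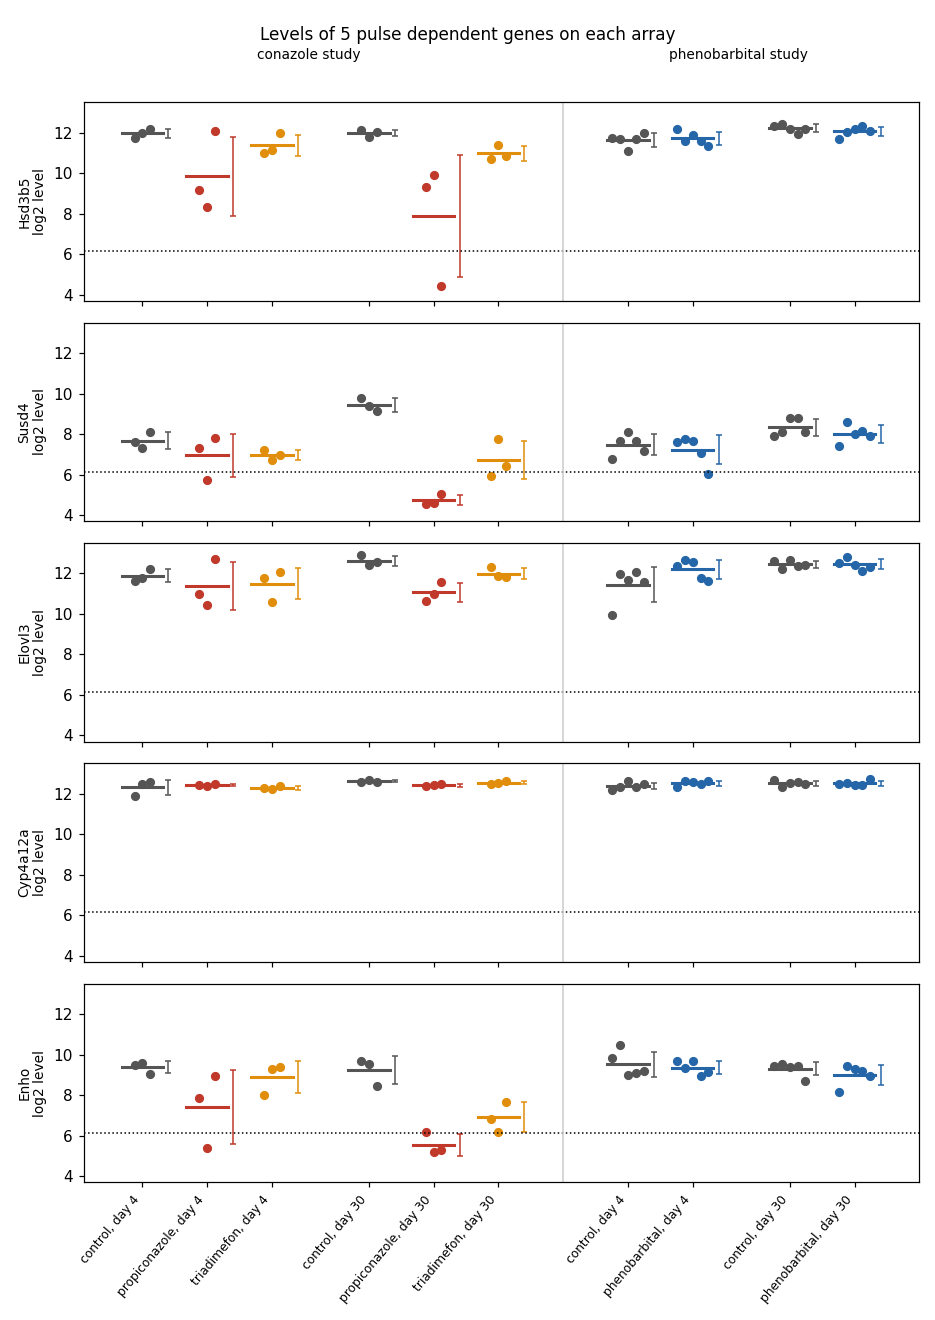
Levels of Hsd3b5, Susd4, Elovl3, Cyp4a12a and Enho, as log2(intensity + 16), on each of the 38 arrays by group; points are arrays, horizontal lines group means, bars beside them ± 1 SD and the dotted line background, with 1 scale for all panels. In the propiconazole day 30 group all 3 Susd4 values, 2 Enho values and 1 Hsd3b5 value lie below background, while the phenobarbital arrays overlap their controls for all 5 genes.

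Set against all 17728 genes tested, 2 of the 10 members (Enho and Ghr) were called lower with propiconazole on day 4, where 6.53% of all genes were called lower and 13.9% in either direction. A call is a Benjamini-Hochberg adjusted p under 0.05 in limma. Without the degraded array 1 member (Ghr) was called lower on day 4. Over the fits with 1 array left out, 8.62% to 21.7% of all genes were called in this comparison. On day 30, 5 members (Hsd3b5, Susd4, Elovl3, Enho and Ghr) were called lower with propiconazole, against 5.53% (10.8% in either direction). With triadimefon 0 members were called lower on day 4 and 2 (Susd4 and Enho) on day 30, against 1.65% and 3% of all genes (3.75% and 5.4% in either direction). With phenobarbital 0 members were called on either day, against 0.677% and 0.479% of all genes called in either direction. Counted by arrays that did not overlap, members lay below all controls for 1 gene with propiconazole on day 4 (6.85% of all genes did so) and 7 on day 30 (12.4%). The triadimefon counts were 1 (8.9%) and 6 (11.8%), and the phenobarbital counts were 3 (2.22%) and 2 (1.97%). Since the members were chosen on these contrasts, the counts describe the list and nothing is read from them.

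The median change of the 5 pulse dependent genes was -0.72 with propiconazole on day 4, and -0.11 without the degraded replicate 2. On day 30 it was -3.68, -3.29 with Susd4 at background, and -2.36 without replicate 3. It was -0.48 and -1.01 with triadimefon on days 4 and 30, and 0.08 and -0.16 with phenobarbital. Over the 5 axis genes it was -0.35 and -0.53 with propiconazole (-0.20 without replicate 1 on day 4 and -0.29 without replicate 3 on day 30), -0.37 and -0.29 with triadimefon, and -0.23 and -0.24 with phenobarbital. The median over all genes tested lay between 0 and 0.03 in these comparisons. Only the arrays of the conazole experiment, fitted alone, gave 0 members called for propiconazole on day 4, 2 (Susd4 and Enho) on day 30, and 1 (Susd4) for triadimefon on day 30. In those comparisons 1.24%, 1.64% and 0.186% of all genes were called in either direction. The phenobarbital experiment fitted alone gave 2 members called lower on day 4 (Ghr and Igf1) and 1 on day 30 (Ghr). There 4.54% and 1.68% of all genes were called, and nothing is read from these counts either. The calls with all 38 arrays borrow a spread averaged over both experiments.

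**Figure D3:**
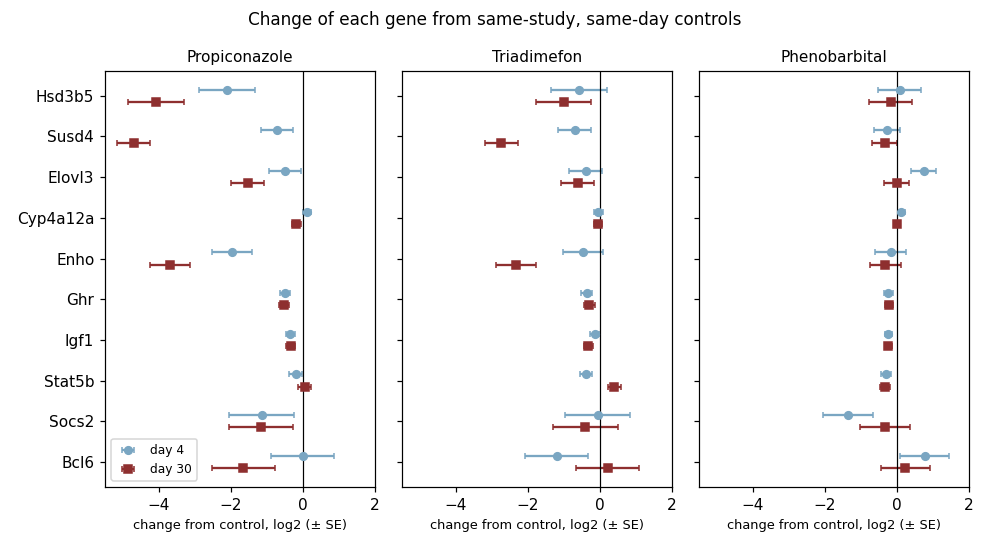
Change of each of the 10 genes from same-experiment, same-day controls, as a log2 difference ± SE, for propiconazole, triadimefon and phenobarbital; circles are day 4 and squares day 30. Hsd3b5, Susd4 and Enho lie from -3.68 to -4.71 with propiconazole on day 30 (the Susd4 value, with all 3 arrays below background, is a fitted one), whereas the phenobarbital changes other than that of Socs2 on day 4 lie between -0.33 and 0.78.

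The change from controls was compared between the days for each gene. These differences of changes come from the contrasts on which the list was drawn up, so they too are descriptions. For Susd4 the propiconazole change on day 30 exceeded that on day 4 by at least 2.57 log2 units, the day 30 group being taken at background (change at background -2.57, and -3.17 without the degraded replicate 2). With triadimefon the day 30 change of Susd4 minus the day 4 change was -2.04 ± 0.64. On the second Susd4 probe set, with 0 of 3 propiconazole arrays above background on either day, the fitted values were -2.04 and -1.96. On the brighter probe set the control mean was 7.67 on day 4 and 9.44 on day 30, so a rise in controls enters both differences. The triadimefon mean was 6.97 on day 4 and 6.70 on day 30. The propiconazole mean was 6.95 on day 4 and below background on day 30.

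For Enho the same difference was -1.70 ± 0.79 with propiconazole (-2.71 without replicate 2 of day 4, -0.92 without replicate 3 of day 4) and -1.85 ± 0.79 with triadimefon. The other bright Enho probe set gave -2.35 and -1.98. For Hsd3b5 it was -1.98 ± 1.10 with propiconazole, -0.26 without replicate 3 of day 30, and -0.88 without replicate 3 of day 4. The triadimefon value of Hsd3b5 was -0.42 ± 1.10. The sizes of Susd4, Enho and Hsd3b5 therefore have no settled order.

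For Ghr the day 30 change minus the day 4 change was -0.03 ± 0.21 with propiconazole (-0.33 without replicate 1 of day 4) and 0.07 ± 0.21 with triadimefon. For Igf1 it was 0.00 ± 0.18 and -0.17 ± 0.18, and the 4 Igf1 probe sets ran from -0.01 to 0.48 with propiconazole and from -0.17 to 0.49 with triadimefon. With phenobarbital the values of the 10 genes lay between -0.75 (Elovl3) and 1.03 (Socs2). Over all genes 1.95% were called in this contrast with propiconazole.

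Susd4 also differed between the control groups of the 2 days. In the conazole controls Susd4 rose by 1.77 ± 0.46 from day 4 to day 30, with a 95% interval of 0.84 to 2.70 (limma, adjusted p = 0.018), and 2.78% of all genes were called higher in that comparison (5.32% in either direction). This test, like those of the other members below, shares the control arrays with the differences on which the list was drawn up. Its p-value may therefore be too small and is a description. Susd4 was not called in limma with the conazole arrays alone (adjusted p = 0.16). Nor was it called without replicate 1 or 2 of either control group (limma adjusted p from 0.055 to 0.083). The change stayed between 1.48 and 1.99 over 18 alternatives. In the phenobarbital controls Susd4 was 0.86 ± 0.35 higher on day 30, with overlapping arrays and limma adjusted p = 1.

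The other members were not called between the control days. Elovl3 differed by 0.74 ± 0.45 in the conazole controls (limma adjusted p = 0.4) and by 0.995 ± 0.35 in the phenobarbital controls (adjusted p = 1). Its arrays did not overlap in either experiment, nor did those of Susd4 and Cyp4a12a in the conazole controls; of all genes, 10.7% lay wholly higher on day 30 in the conazole controls and 0.993% in the phenobarbital controls. Cyp4a12a differed by 0.29 ± 0.12 (limma adjusted p = 0.16) and by 0.13 ± 0.09. Hsd3b5 differed by 0.02 ± 0.77 in the conazole controls, with an interval from -1.56 to 1.598, and by 0.58 ± 0.60 in the phenobarbital controls, from -0.64 to 1.81. In the phenobarbital controls 0 genes of 17728 (0%) were called in limma, although 668 had an unadjusted p under 0.05.

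The 2 conazoles were compared with each other at their different doses. Each difference between them is also the difference of 2 changes on which the list was drawn up, so it is given without a test of the members. On day 30 Hsd3b5 was 3.08 ± 0.77 log2 units lower with propiconazole than with triadimefon (propiconazole minus triadimefon -3.08), and the arrays did not overlap. Without replicate 3 of propiconazole the difference was -1.36. Susd4 was at least 1.47-fold lower with propiconazole, where no array was above background, and at least 1.02-fold without replicate 2 of triadimefon.

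Enho on day 30 differed by -1.35 ± 0.56 between the conazoles, Bcl6 by -1.88 ± 0.87 (-1.02 without replicate 1 of propiconazole) and Elovl3 by -0.92 ± 0.45. Igf1 differed by -0.03 and Cyp4a12a by -0.13. Over 18 alternatives these differences ran from -0.18 to 0.03 for Igf1 and from -0.17 to -0.09 for Cyp4a12a. Over all genes 3.9% were called in this comparison (1.68% lower with propiconazole) and 1.84% on day 4.

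On day 4 the differences turned on single propiconazole livers. Enho was at -1.50 ± 0.56, which was -0.50 without the degraded replicate 2 and -2.28 without replicate 3. Hsd3b5 was at -1.52 ± 0.77, or -0.77 without replicate 2 and -2.63 without replicate 3. For Susd4 the difference was -0.02 ± 0.46 and 0.58 without replicate 2, and for Igf1 it was -0.20 ± 0.13 and -0.01 without replicate 1.

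Because compound and experiment go together, propiconazole can be compared with phenobarbital through the difference of their changes alone, which is again a description. On day 30 the propiconazole change of Susd4 was the lower by at least 2.96 log2 units (-2.96 with the propiconazole group at background). The difference was -3.92 ± 0.98 for Hsd3b5 (-2.20 without replicate 3 of propiconazole), -3.37 ± 0.70 for Enho and -1.54 ± 0.57 for Elovl3. It was -0.33 ± 0.19 for Ghr and -0.11 ± 0.16 for Igf1. The corresponding triadimefon values were -2.41 ± 0.58 for Susd4, -0.84 ± 0.98 for Hsd3b5 and -2.02 ± 0.70 for Enho. Over all genes 1.92% were called for propiconazole on day 30, 1.83% on day 4, and 0.451% for triadimefon on day 30. Compound and experiment cannot be told apart beyond that subtraction.

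The 26 probe sets allow the members to be read more than once. The second Susd4 probe set gave fitted values of -3.92 on day 30 with propiconazole and -1.88 on day 4, below background in both propiconazole groups, where the brighter one gave -0.72 on day 4. The 2 bright Enho probe sets gave -3.68 and -3.66 on day 30, while a dim further one, above background on 11 of 38 arrays, gave 0.85 and the fourth was never above background. All 3 Ghr probe sets and all 4 Igf1 probe sets had negative changes in each of the 6 comparisons, with Igf1 between -0.35 and -1.02 for propiconazole on day 4. Of the 6 Socs2 probe sets, 2 were never above background and another was above it on 2 arrays. A further Socs2 probe set, above background on every conazole array, did not show the fall with propiconazole on day 30. Its means were 7.49 with propiconazole and 7.28 in controls on day 30, and 6.98 and 7.17 on day 4. The direction of Socs2 with propiconazole on day 30 therefore depends on the probe set. The 2 Bcl6 probe sets were both negative for propiconazole on day 30, at -1.66 and -0.88, and differed in sign on day 4.

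**Figure D4:**
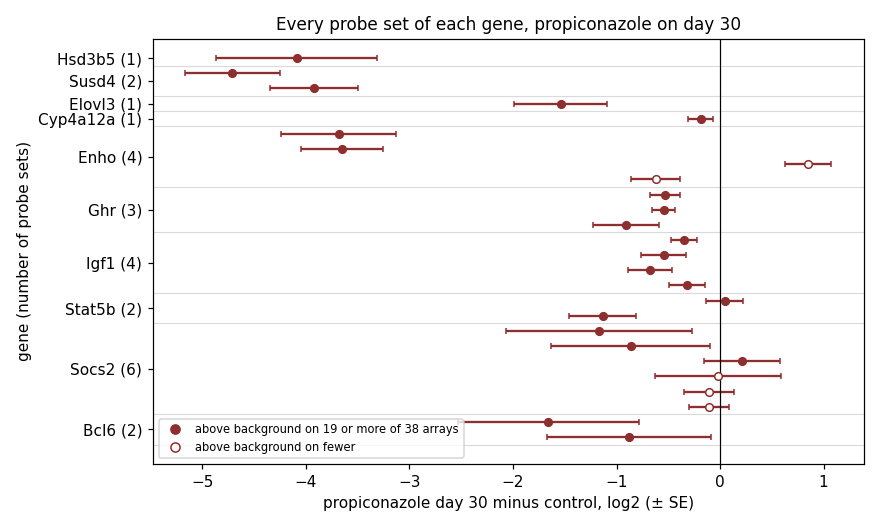
Change of all 26 probe sets of the 10 genes for propiconazole on day 30 against controls, as a log2 difference ± SE; filled points are probe sets above background on 19 or more of the 38 arrays and open points the dimmer ones, in order of mean level within a gene. The Susd4 pair lies at -4.71 and -3.92 and the 2 bright Enho probe sets at -3.68 and -3.66, while the 2 Stat5b probe sets lie at 0.05 and -1.14.

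Other genes of the receptor and its signalling chain were mostly not called. This list and those that follow were chosen with earlier results of these data known, so their calls and p-values are descriptions. Of 17 measured genes on this list, such as kinases, adaptors and phosphatases, 1 was called higher with propiconazole on day 4 (the adaptor Grb2, 0.34 ± 0.11, limma adjusted p = 0.031, and 0.18 without the degraded array) and 2 on day 30. The latter were Sirpa, an inhibitory surface receptor that recruits phosphatases (1.65 ± 0.39, limma adjusted p = 0.0051), and Ptpn2, a phosphatase of JAK and STAT proteins (0.53 ± 0.16, adjusted p = 0.034). With triadimefon and phenobarbital 0 of 17 were called in limma, with 1 and 4 at an unadjusted p under 0.05 for triadimefon on days 4 and 30 and 1 on each day for phenobarbital. For propiconazole 6 of 17 on day 4 and 3 on day 30 had an unadjusted p under 0.05 in limma. Of all genes tested, 13.9% and 10.8% were called with propiconazole on days 4 and 30. The list's median changes lay between -0.13 and 0.06.

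Among 14 measured genes of the IGF system other than Igf1, 4 fell with propiconazole on day 4. The largest was Igfals, the acid labile subunit that stabilizes circulating IGF1 and is a growth hormone target, at -1.32 ± 0.35 (limma adjusted p = 0.01; -0.90 and 0.11 without the degraded array). Igf2r (-0.88), Insr (-0.44) and Igfbp4 (-0.40) were the others, and of the 4 only Insr was called without the degraded replicate (-0.67, adjusted p = 3.9e-04 in limma). On day 30 Igfals was still lower at -1.17 ± 0.35 (limma adjusted p = 0.025), Igfbp7 was lower at -0.51, and Igfbp5 (0.68) and Stc2 (0.56) were higher. Triadimefon lowered Igfbp3 on day 30 (-1.09 ± 0.28, limma adjusted p = 0.019). In limma phenobarbital gave 0 calls on either day, with 4 and 1 genes at an unadjusted p under 0.05.

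Of 14 measured transcription factors tied to sex differences in liver, 2 fell and 1 rose with propiconazole on day 4. They were Cebpa (-1.24 ± 0.23, limma adjusted p = 0.00071), a liver-enriched factor, Onecut2 (-1.13 ± 0.21, adjusted p = 0.00074) and the co-regulator Trim24 (1.03 ± 0.32, adjusted p = 0.031). Without the degraded array Cebpa stood at -0.68 and Onecut2 at -0.94, both called in limma, and Trim24 was not (adjusted p = 0.082). On day 30 Foxa3 (-0.93 ± 0.28, limma adjusted p = 0.025) and Onecut2 (-0.66 ± 0.21, adjusted p = 0.041) were lower. With triadimefon and phenobarbital 0 were called in limma, with 3 and 5 at an unadjusted p under 0.05 for triadimefon and 2 and 0 for phenobarbital. The list's medians were -0.12 and -0.19 with propiconazole.

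Male-biased genes other than the members were mostly uncalled. Of 14 measured, 1 rose (Ugt2b1, 0.31, limma adjusted p = 0.028) and 1 fell (Cyp2u1, adjusted p = 0.0075) with propiconazole on day 4. Without the degraded array Ugt2b1 was not called (limma adjusted p = 0.062), Cyp2u1 was (0.036), and Cyp2d9 was called higher (0.26, adjusted p = 0.046). On day 30, 2 fell, namely Cyp2u1 (at least 3.77-fold lower, limma adjusted p = 7e-06) and Cyp7b1, an oxysterol hydroxylase (-1.40 ± 0.30, adjusted p = 0.0024). Triadimefon lowered Cyp2u1 (-1.71 ± 0.43, limma adjusted p = 0.02) and the urinary protein gene Mup3 (-0.51 ± 0.11, adjusted p = 0.0089) on day 4, and Cyp2u1 (at least 3.77-fold) and the transporter Slco1a1 (-0.65 ± 0.18, adjusted p = 0.03) on day 30. Phenobarbital raised 1 gene on each day, Ugt2b1 (0.32 ± 0.08, limma adjusted p = 0.031) and then Moxd1 (at least 7.62-fold, adjusted p = 0.00062). The list's median was -0.29 and -0.36 with propiconazole, -0.43 and -0.38 with triadimefon, and 0.03 and -0.05 with phenobarbital.

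Of 23 measured female-biased genes, 9 of which had a mean above background, 8 were called higher and 1 lower with propiconazole on day 30. Of all genes tested, 10.8% were called in either direction there and 5.53% lower. The list was chosen with earlier results known, so this count describes it. The cytochrome P450 gene Cyp2b13 was higher by at least 10.5-fold (limma adjusted p = 1.5e-05), its relative Cyp2b9 was 3.85 ± 0.69 higher (adjusted p = 0.00039), Prom1 was above control by at least 4.73-fold (adjusted p = 0.00095), and the fatty acid transporter Cd36 was 2.31 ± 0.51 higher (adjusted p = 0.0029). The 1 lower gene, Acot3, was below background in both groups. On day 4 propiconazole raised 2 of 23, or 1 without the degraded array. In limma triadimefon gave 0 calls on day 4 (1 gene at an unadjusted p under 0.05), and on day 30 it raised 2 and lowered Hamp2, a hepcidin gene (-3.73 ± 0.90, adjusted p = 0.012).

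Phenobarbital raised 1 female-biased gene on day 4 and 2 on day 30, Cyp2b9 (3.14 ± 0.54, limma adjusted p = 0.0013) and Cyp2b13 (at least 4.17-fold, adjusted p = 0.00017). Cyp2b genes are also classical CAR targets. The list's median was 0.90 with propiconazole on day 30, 0.43 with triadimefon and 0.02 with phenobarbital. Over the 9 genes above background it was 1.12, 0.53 and -0.09, with 5, 1 and 2 called higher and 0, 1 and 0 lower. That filter uses the mean over all arrays, treated ones included, so a gene can pass it by being high in treated livers. The values over the 9 genes are therefore a description and no check of the list. The summed intensity of the 23 genes on day 30 ran from 3154 to 4289 in the conazole controls, from 3225 to 9077 with propiconazole, overlapping them, and from 2544 to 3681 with triadimefon. With only the arrays of each experiment, 4 of the 19 calls on the 80 genes of these 5 lists were kept for propiconazole on day 30 (Cyp2u1, Cyp2b9, Cyp2b13 and Vldlr, the very low density lipoprotein receptor), 1 of 12 on day 4, 1 of 6 for triadimefon on day 30 and all 3 for phenobarbital on day 30.

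**Figure D5:**
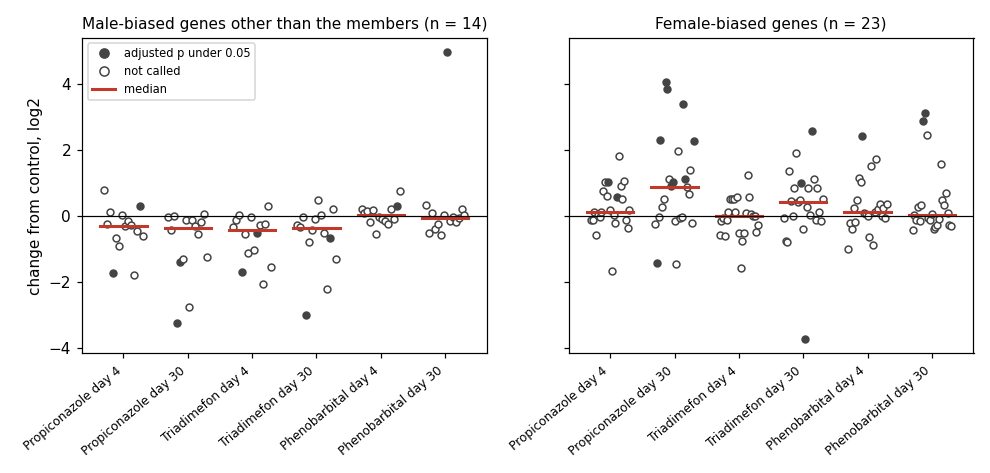
Change from control, as a log2 difference, of 14 male-biased genes other than the 10 members and of 23 female-biased genes, for each compound and day; each point is a gene, filled where the limma adjusted p was under 0.05, and the red bar is the list's median. The female-biased median stands at 0.90 for propiconazole on day 30, and the male-biased medians lie between -0.43 and 0.03.

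Markers of other liver cells moved in the same livers. All 9 Kupffer cell markers, 8 of them above background, had positive changes on day 30 with each of the 3 compounds, and 4 of 9 were called higher with triadimefon (Adgre1, C1qc, Timd4 and Marco) against 0 with propiconazole (3 at an unadjusted p under 0.05 in limma). The summed intensity of these 9 markers ran from 3911 to 5263 in the day 30 controls, 4860 to 9804 with propiconazole and 4752 to 15400 with triadimefon. The sum of 7 neutrophil and monocyte markers, 3 of them above background, ran from 723 to 810, 996 to 5040 and 2001 to 3312 in the same groups, with S100a8 at least 13.3-fold and at least 17.5-fold higher. The sum of 8 stellate cell markers, 6 of them above background, was 5269 to 7358, 3695 to 4390 and 4659 to 4750. Hepatocyte marker sums ran from 90370 to 91670, 81900 to 87100 and 89090 to 92310, and 0 of 9 hepatocyte markers were called in limma on day 30 (2, 0 and 1 at an unadjusted p under 0.05 for propiconazole, triadimefon and phenobarbital). Lymphocyte (7 measured, 0 above background), endothelial (7, 6 above), cholangiocyte (5, 2 above) and erythroid (3, 1 above) markers had at most 2 calls in any comparison with controls. Propiconazole gave 2 cholangiocyte calls on each day, and triadimefon 2 endothelial calls on each day. Without the degraded array Sox9 was not called on day 4 (limma adjusted p = 0.09) and Cftr was (0.023). The cholangiocyte sum on day 30 ran from 447 to 589 in controls, 721 to 824 with propiconazole and 550.5 to 641 with triadimefon. The part of these cells in the values of the 10 genes was not tested.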

How the data were processed

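Liver RNA from 38 mice was measured on 1-colour Affymetrix arrays. The deposited values are intensities on a linear scale, 1 per probe set and array, 21.15% of them below 0; for the software of that summary the labels and headers used here name nothing. Of 45101 probe sets, 35890 were listed with an annotation, 34945 carried 1 gene symbol, 932 several, and 9211 were unlisted. The 38 arrays were quantile normalized, negative values were then set to 0, and log2(intensity + 16) was computed from the result. Each gene is represented by its probe set with the highest mean; 465 genes with a constant value were left out and 17728 tested.

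All 10 groups entered 1 linear model in limma 3.58.1 (R 4.3.3) with an intensity trend, and p-values were Benjamini-Hochberg adjusted over all genes tested. SE is the model's, and an SD is over the arrays of a group. A gene wholly below background (log2 6.15, intensity 55.1) in 1 group is given as a lower bound of its fold. For differences of changes this level was set after the data were seen. The fit was tested on simulated data. P-values set a difference of group means against a spread between animals that is pooled over all 10 groups of both experiments. Samples with the same replicate number correlated at -0.10 to 0.16 and were not paired. With propiconazole on both days and triadimefon on day 30, 2 of 3 treated arrays correlated best with the control of their own number. With triadimefon on day 4 and phenobarbital on both days 0 did so. Whether arrays of the same number share a batch was not tested. The number of arrays limits the precision.

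The members and all gene lists were chosen with earlier results of these data known; the differences of members between the conazoles, planned as tests, are given without one. Named were the 10 members, up to 4 called genes per list and comparison with the largest change, and the 5 genes most correlated with Hsd3b5. Other names, such as the called marker genes and the calls kept in one experiment, were chosen after their values were seen. Alternatives were other scalings, pseudocounts, filters, probe set rules, array subsets, no trend, a replicate block and leaving out each array.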

Additional observations from a re-analysis of the deposited data

Results flagged for a closer look

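Of 40 groups of 5 arrays examined for the 10 genes, 4 held 1 array far from the others; chance gives this in about 1 in 20 groups. Elovl3 stood at 9.965 in replicate 1 of the day 4 phenobarbital-experiment controls, where the others ran from 11.56 to 12.09. Enho stood at 8.714 in replicate 5 of the day 30 controls of that experiment (others 9.41 to 9.55). Ghr stood at 12.526 in replicate 3 of the same group (others 12.38 to 12.41). Bcl6 stood at 9.89 in replicate 1 of the same group (others 6.67 to 7.02).

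Among the other genes of the lists, 9 differences of changes were called in limma. The propiconazole change was larger on day 30 than on day 4 for the female-biased genes Cyp2b13 (by 3.954, adjusted p = 0.0065) and Cd36 (by 2.889, adjusted p = 0.031). Against the phenobarbital change, that of propiconazole was lower on day 4 for Cebpa (-1.245, adjusted p = 0.026). On day 30 it was higher for Ptpn2 (0.757, adjusted p = 0.048), Cyp3a44 (1.143, adjusted p = 0.047) and Vldlr (2.585, adjusted p = 0.0093), and lower for Cyp2u1 (-2.853, adjusted p = 0.0059) and Moxd1 (-7.746, adjusted p = 0.0028). The triadimefon change on day 30 was below that of phenobarbital for Cyp2u1 (-2.602, adjusted p = 0.023). Cyp2b13, Cyp2u1, Moxd1 and Vldlr were below background in at least 1 of the groups compared, so these sizes are fitted values.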

How the results depend on the processing

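The share of features called depended on the scaling. With quantile normalization 13.9% and 10.8% of genes were called for propiconazole on days 4 and 30, 3.75% and 5.4% for triadimefon, 0.677% and 0.479% for phenobarbital, and 1.84% and 3.9% between the conazoles. The conazole controls gave 5.32% and the phenobarbital-experiment controls 0%. Between days the change differed for 1.95% (propiconazole), 1.31% (triadimefon) and 0.00564% (phenobarbital), and from the phenobarbital change for 1.83% and 1.92% (propiconazole) and 0.0451% and 0.451% (triadimefon) on days 4 and 30. On the values as deposited the shares were 6.02% for propiconazole on day 30, 9.36% and 2.22% for triadimefon, 34.1% and 1.56% between the conazoles, 0.00564% in the phenobarbital-experiment controls, 0.559% and 2.39% between days for the conazoles, 0.762% for propiconazole on day 30 against phenobarbital, and 0.92% and 0.0734% for triadimefon against it. With median centring they were 6.93%, 2.73% (triadimefon day 30), 17% and 2.01%, 0.011%, 0.495% (propiconazole between days), and 0.808%, 1.09%, 0.22% and 0.137% against phenobarbital. The deposited values moved the median of all genes above background on day 4 to -0.29 (propiconazole), 0.25 (triadimefon) and -0.54 (their difference), and median centring to -0.09, 0.10 and -0.19, and to -0.15 in the conazole controls.

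The share of calls that were higher moved with it. For propiconazole on day 4 it was 53% with quantile normalization, 8.51% as deposited and 32.8% with median centring, and for triadimefon 56.1%, 93.1% and 76.4%. Between the conazoles on day 4 it was 53.4%, 1.52% and 46.5%, and in the conazole controls 52.3%, 77.7% and 21%. For the differences between days it was 36.5%, 79.8% and 55.6% (propiconazole) and 37.5%, 9.93% and 25.6% (triadimefon). Against phenobarbital it was 52.9%, 2.8% and 23.1% (propiconazole day 4), 51.5%, 41.5% and 33.2% (propiconazole day 30), 50%, 93.3% and 77.5% (triadimefon day 4), and 41.2%, 30.8% and 16% (triadimefon day 30).

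Normalizing each experiment alone gave 1.03% for phenobarbital on day 4, 0.885% between the conazoles on day 4, 0.0113% in the phenobarbital-experiment controls, 1.13% and 0.62% between days, and 1.25% and 0.175% against phenobarbital on day 30. A pseudocount of 8 gave 0.00564% in those controls, and 64 gave 0.079% for triadimefon against phenobarbital on day 4. Genes above background alone gave 4.89% between the conazoles on day 30, 0.0216% in those controls, 0% for phenobarbital between days and 0.0108% for triadimefon against it on day 4. Of all probe sets 12.1%, 8.63%, 3.09% (triadimefon day 4), 0.568%, 0.381%, 1.52%, 3.26%, 5.08% and 0.00298% were called in the order above, and 1.83%, 0.00893%, 1.5%, 1.58%, 0.122% and 0.431% for differences of changes. Probe set means gave 0.807% and 0.0846% for those of triadimefon.

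The arrays included also moved the shares. Each experiment alone gave 1.24% and 1.64% for propiconazole, 0.107% and 0.186% for triadimefon, 0% and 0.0508% between them, 0.395% in the controls and 0.0226% and 0.00564% between days, but 4.54%, 1.68% and 0.0113% for phenobarbital and its controls. The compared groups alone gave 0.0451% and 1.54%, 0% and 0.355%, 1.85% and 1.34%, 0% on both days between the conazoles, 0.13% in the conazole controls, 0% and 0.062% between days, and 0.0959%, 5.73%, 0.942% and 3.77% against phenobarbital. Differences from the phenobarbital change could not be fitted within 1 experiment.

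With the replicate number as a block, 12.8% and 9.76% (propiconazole), 2.97% and 4.82% (triadimefon) and 0.62% and 0.429% (phenobarbital) were called. The block gave 0% for phenobarbital between days and 0.282% for triadimefon against it on day 30.

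Leaving out each array gave 8.62% to 21.7% and 7.2% to 15.8% for propiconazole, 1.22% to 7.22% and 2.83% to 9.64% for triadimefon, 0.367% to 1.39% and 0.293% to 0.694% for phenobarbital, and 0.57% to 13.2% and 2.35% to 6.63% between the conazoles. The controls gave 2.85% to 9.18% and 0% to 0.0113%, the differences between days 1.02% to 6.95%, 0.587% to 3.43% and 0% to 0.0113%, and those from phenobarbital 0.683% to 10.4%, 1.15% to 4.41%, 0.0338% to 0.637% and 0.164% to 2.16%. Most of the highest shares came without the degraded propiconazole array, and the cause was not tested. Members called lower with propiconazole on day 4 numbered 0 (without replicate 2 of the controls) to 6 (without replicate 3 of propiconazole). In those fits 8.62% and 21.7% of all genes were called in either direction. On day 30 the members called lower numbered 3 (without replicate 1) to 5. With triadimefon they numbered 0 to 1 (Ghr, without replicate 3) and 1 to 2, Enho being lost without replicate 1 of the controls or replicate 2 of triadimefon. With 3 arrays per conazole group, and Cyp4a12a, Ghr and Igf1 near the top of the range, small differences of these genes are poorly resolved.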

Other observations

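Of 9258 other genes above background, those whose group means followed Hsd3b5 most closely over the 10 groups were Mif4gd (r = 0.958), Amacr (0.958), Rfc5 (0.95), Hip1r (0.948) and Apol7a (0.948). Amacr encodes a racemase of bile acid intermediates and branched fatty acids, Rfc5 a subunit of the clamp loader of DNA replication, and Hip1r an adaptor of endocytosis. With propiconazole on day 30 their changes were -0.97 for Mif4gd, -0.59 for Amacr, -1.97 for Rfc5, -1.38 for Hip1r and -1.10 for Apol7a. Of the members, Enho followed Hsd3b5 at r = 0.916, Susd4 at 0.859, Ghr at 0.825, Elovl3 at 0.757, Igf1 at 0.716, Socs2 at 0.639, Bcl6 at 0.405, Cyp4a12a at 0.187 and Stat5b at -0.288. These are descriptions over group means that share arrays, without a test. Levels of both experiments enter r, and genes with clone-type names were left out of those named first. The Hsd3b5 mean was 9.86 and 7.90 with propiconazole on days 4 and 30, against 10.98 to 12.22 in the other groups. The values of r therefore rest largely on the propiconazole groups, which include the degraded array on day 4 and the Hsd3b5 value of 4.45 on day 30.

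Acute phase genes, which the liver makes in inflammation, were called in both directions. Of 21 measured, 3 rose with propiconazole on day 4 (0 rose and 3 fell without the degraded array), 3 rose and 2 fell on day 30, 4 rose with triadimefon on day 30 and 1 fell on day 4, and 1 rose with phenobarbital on day 30. Lcn2, an iron-sequestering protein, was at least 18.2-fold higher with propiconazole (limma adjusted p = 0.0042) and at least 28.6-fold higher with triadimefon (adjusted p = 0.0037) on day 30. Crp rose in 4 comparisons, by 0.37 to 0.56, and on day 4 with propiconazole it was not called without the degraded array (0.16, limma adjusted p = 0.35). Of 14 measured fasting-responsive genes, 4 fell with propiconazole on day 4, among them Txnip, a thioredoxin inhibitor (-0.82, limma adjusted p = 0.0082; -0.55 and 0.091 without the degraded array, when 2 of the 4 were called), and 2 fell with triadimefon, Txnip again (-0.93, adjusted p = 0.0093). On day 30 propiconazole raised Vnn1, a pantetheinase under PPAR alpha, by 1.896 (adjusted p = 0.016) and lowered Sesn1 (-0.71, adjusted p = 0.036). Their part in the values of the 10 genes was not tested.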
